A study of Homo sapiens with 4 samples.

Results

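The genes described here are 9 lysosomal cathepsins (CTSA, CTSB, CTSD, CTSF, CTSH, CTSL, CTSO, CTSS and CTSZ) and IFI30, which encodes GILT, the gamma-interferon-inducible lysosomal thiol reductase. They were picked by name, with earlier results of these data known, as lysosomal proteases and a reductase that acts beside them. They are 10 of the 34080 genes summed from the deposited transcripts. Other cathepsins, such as CTSC and CTSK, were counted in a separate list. All 10 passed the low-count filter and were among the 13569 genes tested. RNA was measured by sequencing in HK-2 cells, human proximal tubule cells made to grow without limit, here carrying a Tet-On system that makes HA-tagged PRCC-TFE3 when doxycycline is given. PRCC-TFE3 is the product of a gene fusion found in renal cell carcinoma. The 2 Doxy(-) libraries came from cells kept without doxycycline, and the 2 Doxy(+) libraries from cells given 0.2 microg/ml of doxycycline for 24 h. Both groups carry the same transgene and were grown in low serum, and the study's methods add selection antibiotics to the medium. The labels do not say whether the libraries numbered 1 and 2 came from separate cultures or clones, so the p-values measure the spread between these libraries, which may be technical. HK-2 cells without the transgene were not analysed here, and an effect of doxycycline itself cannot be told apart from one of PRCC-TFE3.

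Cathepsins are proteases that work in the acid interior of the lysosome. They differ in the residue that attacks the peptide bond, and on that ground they are classed as serine, aspartic or papain-like cysteine proteases. Most are made as inactive precursors, tagged with mannose 6-phosphate in the Golgi, carried to endosomes by receptors for that tag and cut to the active enzyme there. In proximal tubule cells they break down proteins taken up from the filtrate. GILT reduces disulphide bonds in the same compartment, so that folded proteins can be unfolded and cut. TFE3 and its relatives TFEB and MITF bind E-boxes, short palindromes found in front of many lysosomal genes.

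Reads on matched genes came to between 12654233 and 15012743 per library. TFE3, on whose transcripts reads of the transgene also fall, stood at 66.9 and 69.0 CPM (reads per 1000000 gene reads after TMM scaling) in Doxy(-) 1 and 2 and at 367 and 322 CPM in Doxy(+) 1 and 2 (log2 fold change 2.34 ± 0.0721 SE, adjusted p 4.78e-05 by edgeR). Of the markers for the labelled cell type, PAX8, a renal epithelial transcription factor, was between 565 and 605 CPM in every library, while LRP2, ANPEP and AQP1, which define the proximal tubule in tissue, held at most 3 counts per library. The 11 epithelial markers measured summed to 2046 and 2043 CPM in Doxy(-) and to 1752 and 1769 CPM in Doxy(+). Of the 8 tested, 4 were lower (CDH6, KRT8, KRT18 and KRT19) and 1 higher (GGT1), beside 9.53% lower and 9.76% higher among all genes tested. The part of this shift in the results below was not tested. In bulk RNA a change in the number of cells of a kind and a change in RNA per cell cannot be told apart. Cathepsin S and GILT are abundant in leukocytes, and the 9 leukocyte markers summed to between 4.01 and 6.47 CPM, with 0 counts of CD3E and MS4A1 in every library. Of the 2 tested, CSF1R and ITGAM, 0 passed an edgeR adjusted p of 0.05 and 0 an unadjusted one, and ITGAM passed under 1 alternative. Of the 3 endothelial markers, summing to between 0.545 and 1.05 CPM, CDH5 was at 0 in every library. The 4 fibroblast markers summed to between 186 and 204 CPM, most of it LUM, and 1 of the 3 tested passed, COL1A1, downward. The COL1A1 call held in 6 of 14 alternatives, that of GGT1 in 5 and that of KRT18 in 8, and LUM passed upward in 1.

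To ask how the family responded once PRCC-TFE3 was switched on, Doxy(+) was compared with Doxy(-) across all genes. Of the 10 members, 8 were higher at an edgeR adjusted p under 0.05, 1 was lower and 1 did not pass. Among all genes tested 9.76% were higher and 9.53% were lower by the same rule. Because the members were chosen with earlier results known, the counts beside these shares are a description and no test. The highest of the 8 were IFI30 and CTSA, which also exceeded a log2 fold change of 1, a limit passed upward by 1.5% of the genes tested. With limma on log2(TPM + 1) only IFI30 and CTSA kept an adjusted p under 0.05, and on log2(TPM + 0.1) 0 of the 10 did, while all members kept their direction. The median log2 fold change of the members was 0.64, beside 0.00062 over all genes tested. The only decrease was that of CTSZ, and CTSO was the member that did not pass. Larger increases than that of IFI30 were found in 121 of the genes tested (0.892%), and than that of CTSA in 315 (2.32%).

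**Figure D1:**
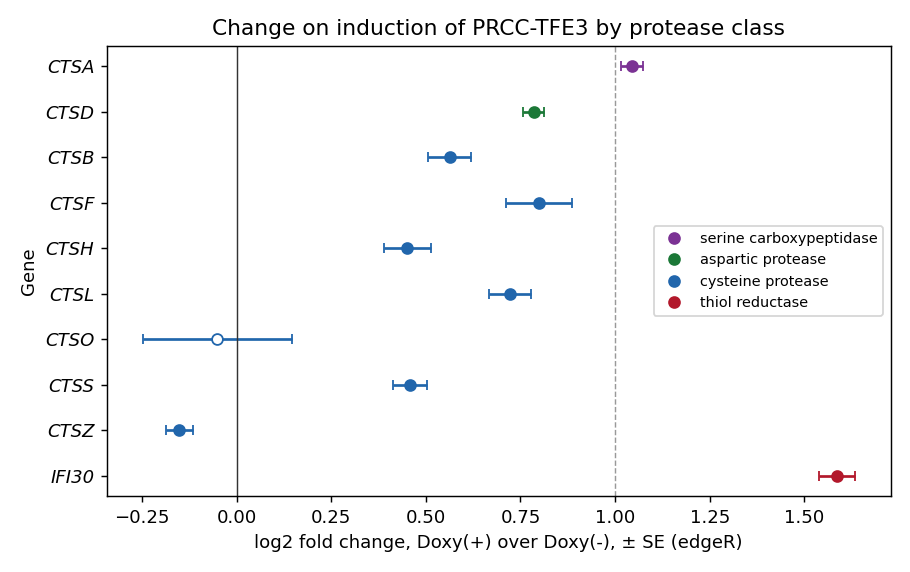
Log2 fold change of Doxy(+) over Doxy(-) (horizontal axis) for each gene (vertical axis), coloured by protease class, with bars for the standard error, filled points for an edgeR adjusted p under 0.05 and a dashed line at 1. IFI30 at 1.59 and CTSA at 1.04 lie to the right of the dashed line, and CTSZ at -0.15 is the only filled point to the left of 0.

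The promoters were read for E-boxes because TFE3 binds this motif. RefSeq windows of GRCh38.p14, from 250 bases before to 50 bases after the gene start, were matched for 7 of the 10 members, and those of CTSB, CTSO and CTSS were not. The E-box CACGTG, which reads the same on both strands, was present in 4 of the 7 windows, beside 7.26% of the 35116 promoters in the table. The longer form TCACGTG, on either strand and containing the E-box, was in the same 4 windows and in 3.71% of all promoters, and the palindrome TCACGTGA was in 1 of the 7, that of CTSA, and in 0.98% of all. The members were chosen as lysosomal genes with earlier results known, so the counts beside these shares are a description and no test. The promoters in the table were not limited to the genes tested here. The stretches below show where the E-boxes of the members lie, in capitals. The longer stretches of IFI30, CTSD and CTSF run outside every exon annotated in GENCODE, but inside the GENCODE bounds of their genes. They thus lie between annotated exons, although they precede the RefSeq start. The motifs of CTSA and the upstream one of CTSF lie in annotated exons, and only 30 bases are shown there. Positions are counted in bases from the RefSeq start, where -1 is the last base before it.
IFI30 (chr19:18173563-18173803, plus strand, from -250 to -10): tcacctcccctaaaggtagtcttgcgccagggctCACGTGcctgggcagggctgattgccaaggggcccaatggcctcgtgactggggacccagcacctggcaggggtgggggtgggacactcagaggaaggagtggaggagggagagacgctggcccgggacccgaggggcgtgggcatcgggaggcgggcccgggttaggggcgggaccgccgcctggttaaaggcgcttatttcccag
CTSA (chr20:45891290-45891319, plus strand, from -45 to -16): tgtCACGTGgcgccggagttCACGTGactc
CTSD (chr11:1763965-1764177, minus strand, from -250 to -38): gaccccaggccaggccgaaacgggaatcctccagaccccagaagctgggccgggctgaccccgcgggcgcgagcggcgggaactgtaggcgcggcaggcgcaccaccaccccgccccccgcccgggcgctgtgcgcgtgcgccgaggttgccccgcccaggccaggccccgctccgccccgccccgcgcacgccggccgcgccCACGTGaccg
CTSF (chr11:66568607-66568717, minus strand, from -111 to -1): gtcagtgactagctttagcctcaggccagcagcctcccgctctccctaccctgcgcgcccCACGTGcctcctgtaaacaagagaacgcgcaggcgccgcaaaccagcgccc
CTSF (chr11:66568712-66568741, minus strand, from -135 to -106): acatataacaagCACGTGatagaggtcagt

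IFI30 held its single E-box far from the start, at -216 to -211. CTSA held a pair, at -42 to -37 and at -25 to -20, the latter being the palindrome TCACGTGA. The E-box of CTSD lay at -47 to -42. CTSF had one at -123 to -118 and another at -51 to -46, which lacks the flanking base of the longer form. The windows of CTSL, CTSH and CTSZ held no CACGTG. The members with an E-box had log2 fold changes from 0.79 to 1.59, and those without had 0.72, 0.45 and -0.15. CTSB, CTSS and CTSO, whose windows were not matched, had 0.56, 0.46 and -0.05. A link between motif and change was not tested. Binding was not measured in these files, and a match of letters is a description. The paper also sequenced DNA bound by PRCC-TFE3 in inducible HK-2 cells, and those data were not used here.

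**Figure D2:**
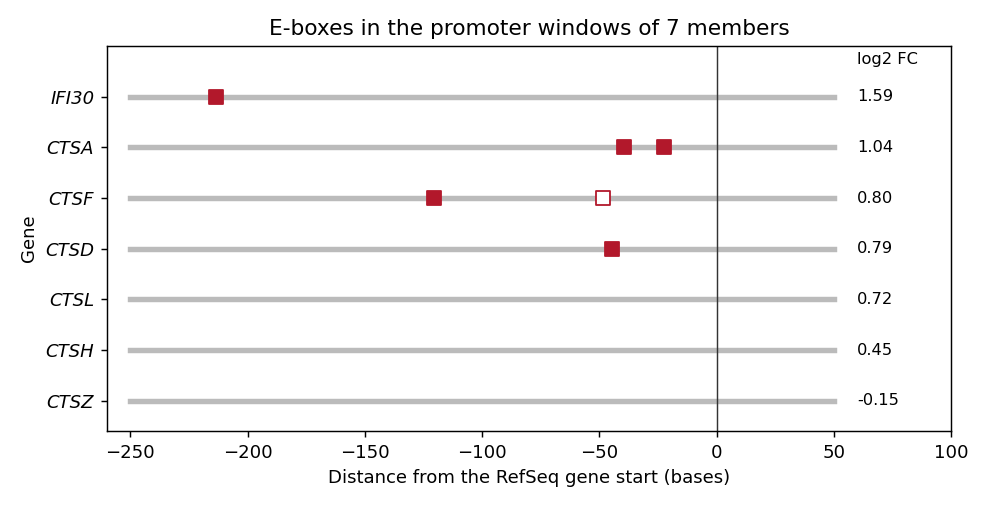
E-boxes (squares) in the promoter windows of 7 genes (vertical axis), by distance from the RefSeq gene start in bases (horizontal axis), with each gene's log2 fold change at the right. Filled squares have the flanking base of TCACGTG on either strand, the open square of CTSF does not, and the 3 rows at the bottom, CTSL, CTSH and CTSZ, hold none.

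IFI30 (ENSG00000216490.4, chromosome 19, 18173162 to 18178117) had the largest change of the family. It stood at 142 and 131 CPM without doxycycline, against 414 and 405 CPM with it. Both induced libraries lay far above both uninduced ones, and the replicates differed by far less than the groups. The change was 3.003-fold (log2 fold change 1.59 ± 0.0477 SE, adjusted p 4.47e-05 by edgeR). In terms of TPM, a scale that corrects for transcript length, IFI30 went from 188 ± 12.2 to 580 ± 11.2 TPM (SD, n = 2 each). In cells that present antigen, GILT acts beside the MHC class II proteins, and their genes were examined for comparison. Of 8 genes of class II antigen processing, 4 were tested and 0 passed an adjusted p of 0.05 by edgeR or under any alternative, and 1, CD74, had an unadjusted p under 0.05. Among all genes tested, 9.76% were higher and 9.53% lower by the edgeR rule. The median log2 fold change of the 4 class II genes tested was 0.18. CD74, the invariant chain, stood at 109 and 105 CPM without doxycycline, against 116 and 116.5 CPM with it (log2 fold change 0.12 ± 0.0441 SE, adjusted p 0.115 by edgeR). HLA-DRA and HLA-DPA1 had 0 counts in all 4 libraries, which allows up to 0.233 CPM in the library with the fewest reads. That limit covers counting error only.

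Cathepsin A, CTSA (ENSG00000064601.21, chromosome 20, 45890144 to 45898949), is a serine carboxypeptidase of the lysosome, and it also shields the sialidase NEU1 and the beta-galactosidase GLB1 in a complex. It stood at 294 and 299 CPM without doxycycline, against 616 and 608 CPM with it, so the groups were well apart. It rose 2.06-fold (log2 fold change 1.04 ± 0.0300 SE, adjusted p 4.47e-05 by edgeR), and its log2 fold change stayed between 1.03 and 1.06 when any 1 library was left out. Among 4 partners of cathepsins A and D, 2 were higher, 0 lower and 2 did not pass, beside 9.76% higher and 9.53% lower among all genes tested. The median log2 fold change of the 4 was 0.332. NEU1 rose from 28.5 and 27.3 CPM to 68.3 and 72.0 CPM (log2 fold change 1.33 ± 0.0618 SE, adjusted p 0.000173 by edgeR). GLB1 had a log2 fold change of 0.17 (SE 0.0558, adjusted p 0.0943 by edgeR), and GALNS one of 0.29 (SE 0.237, adjusted p 0.45 by edgeR). Exons of NEURL2 overlap CTSA on the other strand. NEURL2 had 35.5 and 37.1 counts in Doxy(-) and 77.7 and 73.8 in Doxy(+), against at least 3789 for CTSA, and whether the counting used the strand is not stated. Exons of PLTP overlap those of CTSA likewise, with 645 and 637 counts in Doxy(-) and 799 and 809 in Doxy(+).

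Cathepsin D, CTSD (ENSG00000117984.15, chromosome 11, 1752752 to 1764573), is the main aspartic protease of lysosomes. It measured 635 and 621 CPM in Doxy(-) and 1083 CPM in both Doxy(+) libraries. The spread within each group was small beside the distance between them. The rise was 1.72-fold (log2 fold change 0.79 ± 0.0277 SE, adjusted p 7.26e-05 by edgeR). PSAP, the saposin precursor, which binds procathepsin D, rose from 2352 and 2265 CPM to 2953 and 3027 CPM (log2 fold change 0.37 ± 0.0299 SE, adjusted p 0.000804 by edgeR). The other aspartic proteases of the list were rare, CTSE with at most 0.291 counts in a library and NAPSA with 21.0 to 35.9. An unnamed gene, ENSG00000250644, overlaps CTSD on the same strand with 3.76 to 20.9 counts, against at least 8192 for CTSD.

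The 7 papain-like cysteine cathepsins did not move as one. Of these, 5 were higher in Doxy(+), CTSZ was lower, and CTSO did not pass. Cathepsin L, CTSL (chromosome 9, 87724051 to 87731469), a potent endopeptidase, stood at 65.1 and 69.1 CPM without doxycycline, against 114 and 108 CPM with it (log2 fold change 0.72 ± 0.0559 SE, adjusted p 0.000728 by edgeR). Cathepsin F, CTSF (chromosome 11, 66563464 to 66568879), stood at 22.8 and 21.8 CPM and then at 41.2 and 36.3 CPM (log2 fold change 0.80 ± 0.0872 SE, adjusted p 0.00242 by edgeR). Both rose without overlap of the groups, CTSF with the wider spread in Doxy(+). Reads could be divided between CTSL and its pseudogenes, which held at most 14.5 counts in a library against at least 839 for CTSL.

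Cathepsin B, CTSB (chromosome 8, 11842524 to 11869533), which can trim dipeptides from the end of a chain as well as cut within it, stood at 136 and 123 CPM without doxycycline, against 188 and 194 CPM with it (log2 fold change 0.56 ± 0.0570 SE, adjusted p 0.00182 by edgeR). Cathepsin S, CTSS (chromosome 1, 150730079 to 150765957), known for cutting the invariant chain in antigen-presenting cells, stood at 96.3 and 93.4 CPM and then at 132 and 128 CPM (log2 fold change 0.46 ± 0.0448 SE, adjusted p 0.00159 by edgeR). Cathepsin H, CTSH (chromosome 15, 78921058 to 78949574), an aminopeptidase, stood at 27.9 and 28.5 CPM and then at 38.7 and 38.5 CPM (log2 fold change 0.45 ± 0.0628 SE, adjusted p 0.00555 by edgeR). In each of these 3 genes both Doxy(+) libraries lay above both Doxy(-) libraries, and the fitted folds between the groups were from 1.37 to 1.48.

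Cathepsin Z, CTSZ (ENSG00000101160.15, chromosome 20, 58985686 to 59008238), also called cathepsin X, removes single residues from the carboxyl end. It was the most abundant member and moved the other way, from 1237 and 1300 CPM in Doxy(-) to 1124 and 1160 CPM in Doxy(+). The groups did not overlap, but the decrease was 9.95% (log2 fold change -0.15 ± 0.0349 SE, adjusted p 0.0313 by edgeR). This call was lost without Doxy(+) 1 (log2 fold change -0.13, edgeR adjusted p 0.191) and without Doxy(+) 2 (-0.17, edgeR adjusted p 0.0949), and over all alternatives the adjusted p ran from 0.00341 to 0.485 with the direction kept. Exons of NELFCD overlap CTSZ on the other strand, with 408 to 578 counts against at least 14480.

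CTSO (chromosome 4, 155921580 to 155953912), a little-studied member of the family, had the lowest level of the 10. Its estimated counts were 53.5 and 59.5 in Doxy(-) and 51.0 and 53.5 in Doxy(+), or 3.96 to 4.15 CPM. Its log2 fold change was -0.05 (SE 0.198, adjusted p 0.889 by edgeR), and the fold lay between 0.842 and 1.11 within 1 SE. Another identifier, matched to no gene, had equal length and counts to the CTSO transcript, and with that copy added the log2 fold change was the same to 2 decimals. The counts, CPM and TPM given for CTSO leave out the reads assigned to that copy, so its level may be understated.

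**Figure D3:**
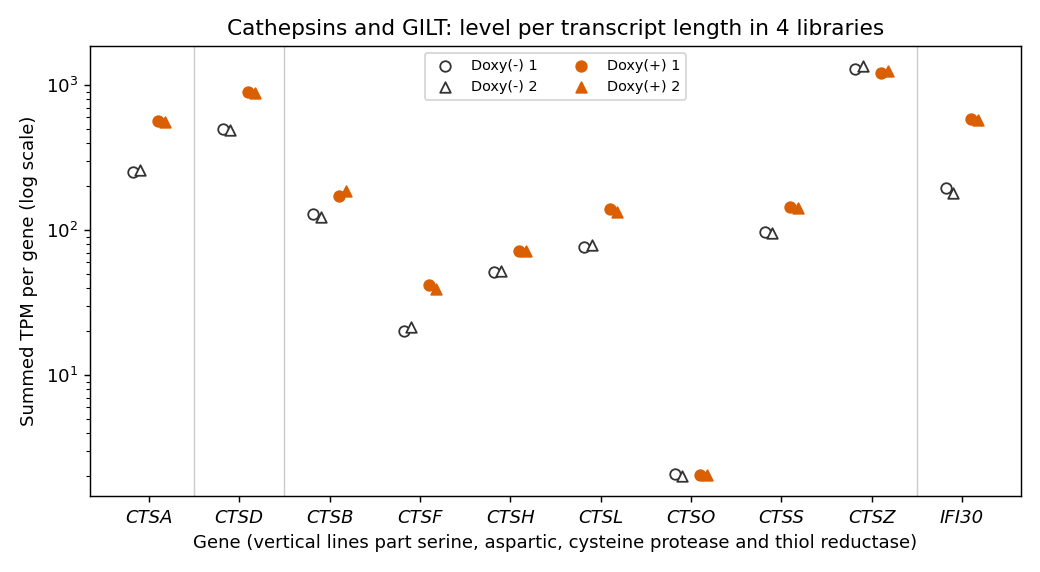
Deposited TPM summed per gene (vertical axis, log scale) in each of the 4 libraries for the 10 genes (horizontal axis), with open symbols for Doxy(-), filled ones for Doxy(+), circles for library 1 and triangles for library 2. CTSZ is at the top in every library with 1205 TPM or more, CTSO at the bottom near 2 TPM, and the filled symbols of IFI30 are level with those of CTSA at this scale.

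Levels were compared between genes per length, in TPM. In Doxy(-) the order was CTSZ with 1321 TPM, CTSD 496, CTSA 257, IFI30 188, CTSB 127, CTSS 96.2, CTSL 78.0, CTSH 51.9, CTSF 20.9 and CTSO 2.05, and the libraries of no neighbouring pair overlapped. In Doxy(+) the order differed at one step. IFI30, at 588 and 572 TPM, passed CTSA, at 568 and 560 TPM, by a narrow margin, with the mean of CTSA at 0.972 of that of IFI30. The ranges of the libraries did not overlap, and the difference was not tested. CTSS at 145 and 141 TPM lay only just above CTSL at 139 and 132 TPM. The lead of CTSZ over CTSD narrowed from 2.66-fold to 1.38-fold. With CPM per kb of the leading transcript 4 of the 10 members kept their place. The TPM sums include transcripts not annotated as coding. In Doxy(-) 1, CTSH-202 and CTSH-214 held 23.0 and 23.6 of the 51.7 TPM of CTSH. In the same library CTSS-204 held 41.4 of the 97.05 TPM of CTSS, and CTSL-205 22.25 of the 76.5 TPM of CTSL. The order of coding transcripts alone was not examined and may differ.

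By class, the serine enzyme CTSA and the aspartic enzyme CTSD, each the only member of its class here, gained share. CTSZ made up 53.5% and 54.4% of the summed TPM of the 9 cathepsins in Doxy(-) and 37.2% and 38.2% in Doxy(+). CTSD went from 20.6% and 20.0% to 27.7% and 27.0%, and CTSA from 10.4% and 10.5% to 17.5% and 17.2%. Each of these shares was apart between the groups. The 7 cysteine cathepsins summed to 1590 and 1639 CPM in Doxy(-) and to 1643 and 1669 CPM in Doxy(+), a ratio of 1.03. Without CTSZ, an alternative chosen after its level was seen, the other 6 summed to 352 and 339 CPM and then to 518 and 508 CPM, a ratio of 1.48. All 9 cathepsins together went from 2422 and 2476 TPM to 3240 and 3259 TPM. These sums are descriptions and were not tested.

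**Figure D4:**
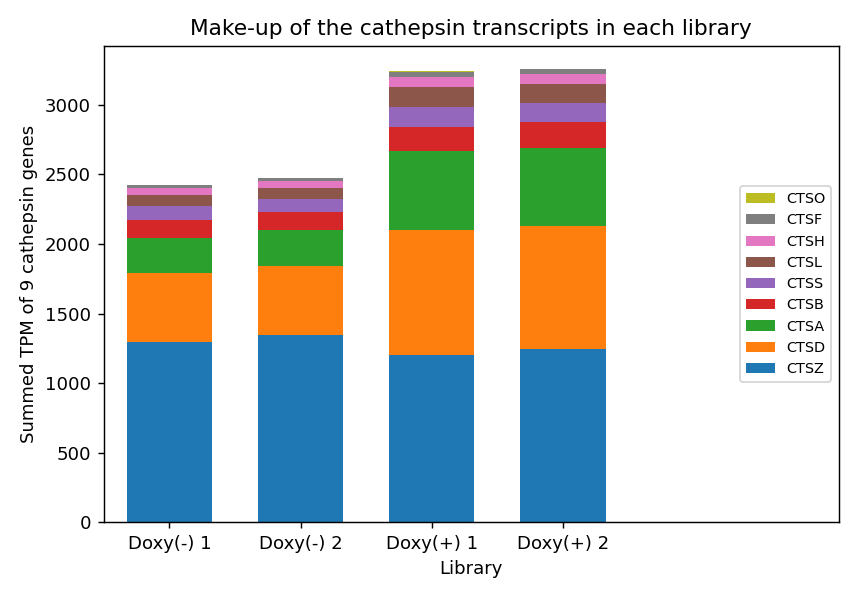
Summed TPM of the 9 cathepsin genes (vertical axis, from 0) in each library (horizontal axis), stacked by gene. The bars of Doxy(+) 1 and 2 reach 3240 and 3259 TPM against 2422 and 2476 TPM in Doxy(-), with the CTSD and CTSA blocks taller and the CTSZ block slightly shorter.

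In 6 members most reads fell on a single coding transcript. CTSZ-201 held 98.7% of CTSZ counts, IFI30-201 98.9% of IFI30 and CTSO-201 all of CTSO. CTSA-201 held 79.9% of CTSA, CTSL-201 70.9% of CTSL and CTSF-201 69.3% of CTSF. In CTSD and CTSH the leading transcript was not annotated as coding. CTSD-204, classed as nonsense-mediated decay, took 48.6% of CTSD counts, and the coding CTSD-201 took 44.6%. CTSH-202, of the same class, took 64.5% of CTSH, and CTSH-214, a retained intron, 27.1%. Both leading CTSD transcripts had more reads in each Doxy(+) library, CTSD-204 going from 4067 and 3995 estimated counts to 7052 and 7145, and CTSD-201 from 3678 and 4451 to 5858 and 6460. CTSB and CTSS were spread over several transcripts, with CTSB-202 at 28.2% and CTSS-201 at 43.8%. Short reads that fit several transcripts are divided by estimate, so these shares are less certain than the sums.

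The genes that work with the cathepsins were then counted from lists, beside the 9.76% higher and 9.53% lower among all genes tested. Those named as higher with their values passed in 11 to 13 of the 14 alternatives. Of 7 other cathepsins and related proteases, 4 were tested and 1 passed, upward, which was CTSV, the close relative of CTSL, at 36.5 and 36.7 CPM in Doxy(-) and 53.1 and 50.4 CPM in Doxy(+) (log2 fold change 0.50 ± 0.0582 SE, adjusted p 0.00298 by edgeR). CTSC, the dipeptidyl peptidase of the family, stood at 106 to 115 CPM with overlapping groups (log2 fold change -0.04 ± 0.0533 SE, adjusted p 0.683 by edgeR). The collagen-cutting CTSK had 48.0 to 77.0 counts and a log2 fold change of -0.31 (SE 0.235, adjusted p 0.418 by edgeR). CTSG had 0 counts in every library, and CTSW had at most 6.01. The median log2 fold change of the 4 was 0.126, where that of all genes tested was 0.00062.

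Of 7 other lysosomal peptidases 6 were tested, and 4 were higher, 0 lower and 2 did not pass, with a median log2 fold change of 0.528. TPP1, the tripeptidyl peptidase, rose from 74.2 and 78.8 CPM to 190 and 191 CPM (log2 fold change 1.32 ± 0.0457 SE, adjusted p 7.18e-05 by edgeR). LGMN, the asparaginyl endopeptidase that also processes cathepsins, rose from 328 and 310 CPM to 492 and 486 CPM (log2 fold change 0.61 ± 0.0372 SE, adjusted p 0.000326 by edgeR). SCPEP1, a serine carboxypeptidase related to CTSA, rose by 1.04 on the log2 scale (SE 0.117, adjusted p 0.00266 by edgeR). The inhibitors were few in these cells. Of 12 listed, 3 were tested and 1 was higher, CSTB, the cytosolic cystatin B, from 91.5 and 91.9 CPM to 125 and 124 CPM (log2 fold change 0.44 ± 0.0415 SE, adjusted p 0.00143 by edgeR). CST3, the secreted cystatin C, averaged 127 CPM in Doxy(-) and 132 CPM in Doxy(+) (log2 fold change 0.05 ± 0.0899 SE, adjusted p 0.738 by edgeR), and 6 of the 12 had 0 counts in all libraries. The median of the 3 was 0.121.

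Of 10 genes that tag lysosomal enzymes or carry them to the lysosome, all were tested, and 6 were higher, 0 lower and 4 did not pass, with a median log2 fold change of 0.379. Of the 6, GNPTAB passed in 8 of the 14 alternatives, GNPTG in 6 and NAGPA in 5. Both mannose 6-phosphate receptors rose, IGF2R from 714 and 718 CPM to 1111 and 1090 CPM (log2 fold change 0.62 ± 0.0271 SE, adjusted p 0.000153 by edgeR) and M6PR from 224 and 222 CPM to 372 and 365 CPM (log2 fold change 0.73 ± 0.0322 SE, adjusted p 0.000158 by edgeR). Of the 3 GGA adaptors, which load these receptors into vesicles, GGA2 rose by 0.53 on the log2 scale (SE 0.0462, adjusted p 0.00104 by edgeR), while GGA1 had -0.0038 (SE 0.0922, adjusted p 0.984 by edgeR) and GGA3 0.12 (SE 0.209, adjusted p 0.741 by edgeR). Of the MiT/TFE factors themselves, 3 were tested and TFE3 alone passed, upward, with reads of the transgene among its own. MITF had a log2 fold change of -0.32 (SE 0.178, adjusted p 0.264 by edgeR), which ran from -0.63 to -0.077 over the alternatives. It passed, downward, in 1 of the 14 alternatives.

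**Figure D5:**
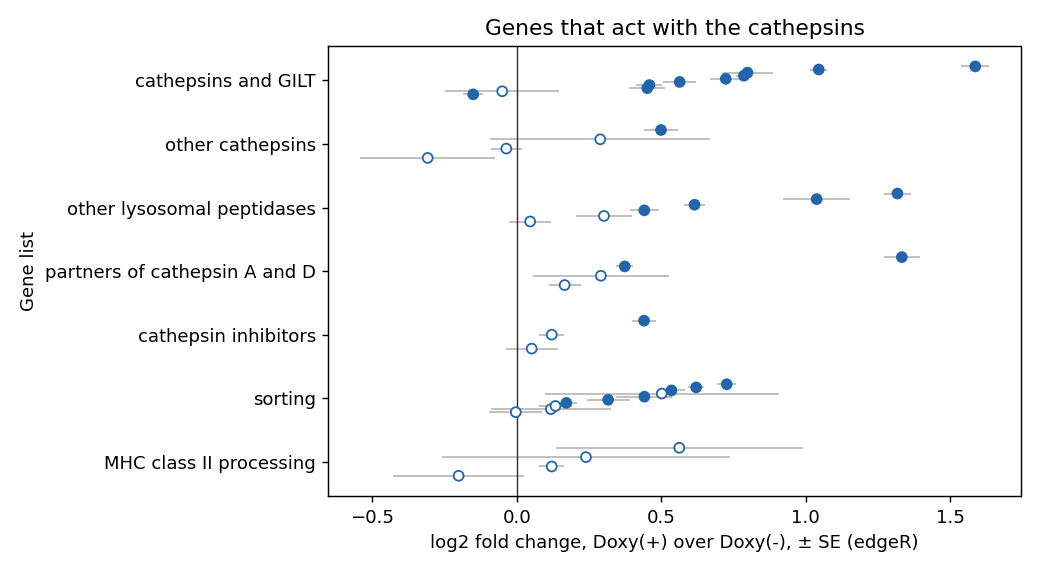
Log2 fold change of Doxy(+) over Doxy(-) with standard error (horizontal axis) for each tested gene of 7 lists (vertical axis), filled where the edgeR adjusted p was under 0.05. Filled points lie to the right of 0 in every list but that of MHC class II processing, which has none, and CTSZ is the only filled point to the left.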

How the data were processed

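RNA of 4 libraries, 2 per group, was analysed. Per the study's methods, total RNA was extracted with TRIzol, a stranded TruSeq kit for mRNA was used, and single-end reads were trimmed with Trim Galore 0.6.6 and cutadapt 2.5 and aligned to hg38 with STAR 2.7.9a. The files deposited by the authors have the columns of kallisto instead, with an estimated count and a TPM per Ensembl transcript. The methods name RSEM, with its version, for TPM. The tool that wrote the deposited columns, its strand setting and the release of Ensembl are not given in the sources used here. The deposited estimated counts are not normalized, and the deposited TPM sum to 1000000 per library.

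Of 180253 identifiers 150691 (83.6%) matched GENCODE release 44 on hg38. The unmatched ones, with 9.66% to 9.89% of a library's counts, stayed out of the sums and library sizes. Counts were summed per gene, rounded and tested in R 4.3.3 with the quasi-likelihood test of edgeR 4.0.16 after TMM scaling and filterByExpr, group being the only term, two-sided. Benjamini-Hochberg adjustment covered all genes tested. Calls needed an adjusted p under 0.05, and the study's further limit of 1 on the log2 fold change was also applied. The test was checked on simulated data. Replicates differed by more than sampling noise (chi-square per degree of freedom 4.03 in Doxy(-) and 2.91 in Doxy(+)). No molecular identifiers are stated, so limits from counts cover counting error only.

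The members and lists were chosen with earlier results of these data known. Every member was named, and from each list up to 3 genes with the smallest p of those that passed. Other genes named, such as CTSC, GLB1, GGA1 or CST3, were chosen for their role after their values were seen. Alternatives were RLE scaling, 2 other filters, DESeq2 1.42.0, limma 3.58.1 on log2(TPM + 1) and log2(TPM + 0.1) of genes with a mean of at least 1 TPM, length-scaled counts, unmatched copies added, unmatched identifiers tested beside the genes, a replicate block, each library left out, and an adjusted p under 0.01.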

Additional observations from a re-analysis of the deposited data

How the results depend on the processing

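Direction was kept by all 10 members under all 14 alternative fits, and 20 of 140 recomputed values lost the call. The 140 include 14 values of CTSO, which had no call to lose. Of the 20, 6 were CTSZ and the other 14 arose with limma on TPM. That test left 2 members higher (IFI30 and CTSA) and 0 lower with log2(TPM + 1), and 0 higher, 0 lower and 0 past both limits with log2(TPM + 0.1), where the limma adjusted p was 0.067 for IFI30 and 0.0741 for CTSA at log2 fold changes of 1.63 and 1.14. The cause was not tested. The count of lower members was 0 with length-scaled counts, with unmatched identifiers entered as features of their own and at an adjusted p under 0.01. Leaving out 1 library gave 8 higher members and 2 past both limits each time, and 0 to 1 lower. With deposited TPM the log2 ratio of the class sums was 1.14 for the serine enzyme (1.04 in CPM), 0.84 for the aspartic (0.79) and 0.083 for the 7 cysteine enzymes (0.036), and in CPM that of the cysteine enzymes without CTSZ, an alternative added after the data were seen, was 0.57. The replicate block gave 8 higher, 1 lower and 2 past both limits, and the deviations of same-numbered libraries correlated at -0.0147 over genes, so the numbers were not taken as pairs. CTSO rests on under 60 counts in each library, without those of its unmatched copy.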

Other observations

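Transcripts within CTSA and CTSB moved unevenly, as estimated by the authors' quantifier. CTSA-202, a coding transcript of 1820 bases, was assigned 2.13 and 0.000241 reads without doxycycline, against 287 and 233 reads with it, or 3.62% and 2.86% of CTSA in the induced cells. CTSA-201 went from 3206 and 3661 to 6202 and 6347, and its share of CTSA from 84.6% and 83.2% to 78.2% and 77.8%. In CTSB, CTSB-204 went from 229 and 146 to 585 and 472 and CTSB-202 from 466 and 457 to 688 and 805, whereas CTSB-223 stood at 376 and 554 and then at 374 and 585, with overlapping groups, and so did CTSB-216, at 378 and 376 and then at 495 and 323. The retained-intron transcript CTSF-205 went from 36.7 and 49.2 to 106 and 115 reads. These transcripts were chosen after their values were seen, and none was tested.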
